A study of Homo sapiens with 6 samples.

Results

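The genes of the tight, gap and adherens junctions and of the desmosome were described in Huh7 cells, a human hepatocellular carcinoma line, after editing of HNRNPA2B1, the gene of an RNA-binding protein of the hnRNP family. The 39 genes were chosen by symbol: 11 claudins, 8 other tight junction genes, 4 gap junction genes, 8 adherens junction genes and 8 desmosome genes. All 39 had a row among the 25202 rows of the gene count table. RNA-seq was done on 3 knockout libraries, from Huh7 cells with a guide against HNRNPA2B1 and labelled KO, and on 3 control libraries, from Huh7 cells with the control guide sgNC and labelled WT. Both groups were otherwise labelled as cultured liver cancer cells, with no agent and no time given. The labels do not say where the guide cuts, whether the knockout cells are 1 clone or a pool, or whether the libraries of a group came from separate cultures, so p-values rest on how these libraries vary within a group, and that variation may be technical.

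Epithelial cells are joined by several kinds of junction. Tight junctions seal the space between neighbouring cells: claudins and the MARVEL-domain proteins span the membrane, and the ZO proteins and cingulins tie them to actin. In the liver they separate bile in the canaliculi from blood. Gap junctions are channels made of connexins through which small molecules pass from cell to cell. In adherens junctions, cadherins and nectins hold cells together and are linked to actin by catenins and afadin, and in desmosomes, desmogleins and desmocollins are linked to keratin filaments by plakoglobin, plakophilins and plakins.

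Library totals ran from 32517757 to 38870244 counts. The targeted gene HNRNPA2B1 (ENSG00000122566) had 8729, 8232 and 8364 counts in the knockout libraries and 40867, 32755 and 44149 counts in the control libraries. Scaled to library size (CPM), that is 229 ± 8.30 CPM in knockout cells and 1214 ± 221 CPM in control cells (SD, n = 3 each). The log2 fold change in knockout cells was -2.40 ± 0.14 (SE; edgeR quasi-likelihood test, Benjamini-Hochberg adjusted p = 2.28e-06), and transcript remained in every knockout library. Of 16331 genes tested, 40.1% were called at an adjusted p below 0.05, 21.1% higher and 19% lower in knockout cells. All 12 hepatocyte marker genes were detected in both groups; 11 of them were called lower in knockout cells and none higher, and their summed level ran from 11450 to 12402 CPM in knockout libraries and from 19096 to 22746 CPM in control libraries. Markers of fibroblasts and stellate cells summed to 10.8, 26.9 and 8.86 CPM in knockout libraries and to 2.05, 3.04 and 1.93 CPM in control libraries. Knockout replicate 2 stood apart: it had the highest count of the 6 libraries for 7 of these 10 markers, with 23, 165 and 4 counts of COL1A1, a collagen of fibroblasts, in knockout libraries and 7, 0 and 0 counts in control libraries. Without that library 10 junction genes were called higher and 8 lower, beside 12 and 9 with all libraries. Calls over all genes then went from 6548 to 4547. Without knockout replicate 1 or 3 they went to 4416 or 4932, with 11 junction genes higher and 8 lower each time. The part of the marker shifts in the results on junction genes was not tested. In bulk RNA fewer cells of a type and less RNA per cell cannot be told apart.

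Of the 39 junction genes, 36 passed the filter on low counts and were tested. In knockout cells 12 were called higher and 9 lower, and 15 were not called. The 21 called genes are 58.3% of those tested, beside 40.1% of all genes; 33.3% were called higher, beside 21.1% of all genes, and 25.0% lower, beside 19%. A change of at least 2-fold was called upward for CLDN7, MARVELD3, PPL and DSC2 and downward for CLDN3, GJB1 and GJB2; over all genes 10.6% were called higher and 3.31% lower at that size. The log2 fold changes had a median of 0.09 over the 36 junction genes and 0.05 over all tested genes. Each class held genes that moved in opposite directions except the desmosome genes, of which none was called lower except EVPL under cyclic loess scaling.

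**Figure D1:**
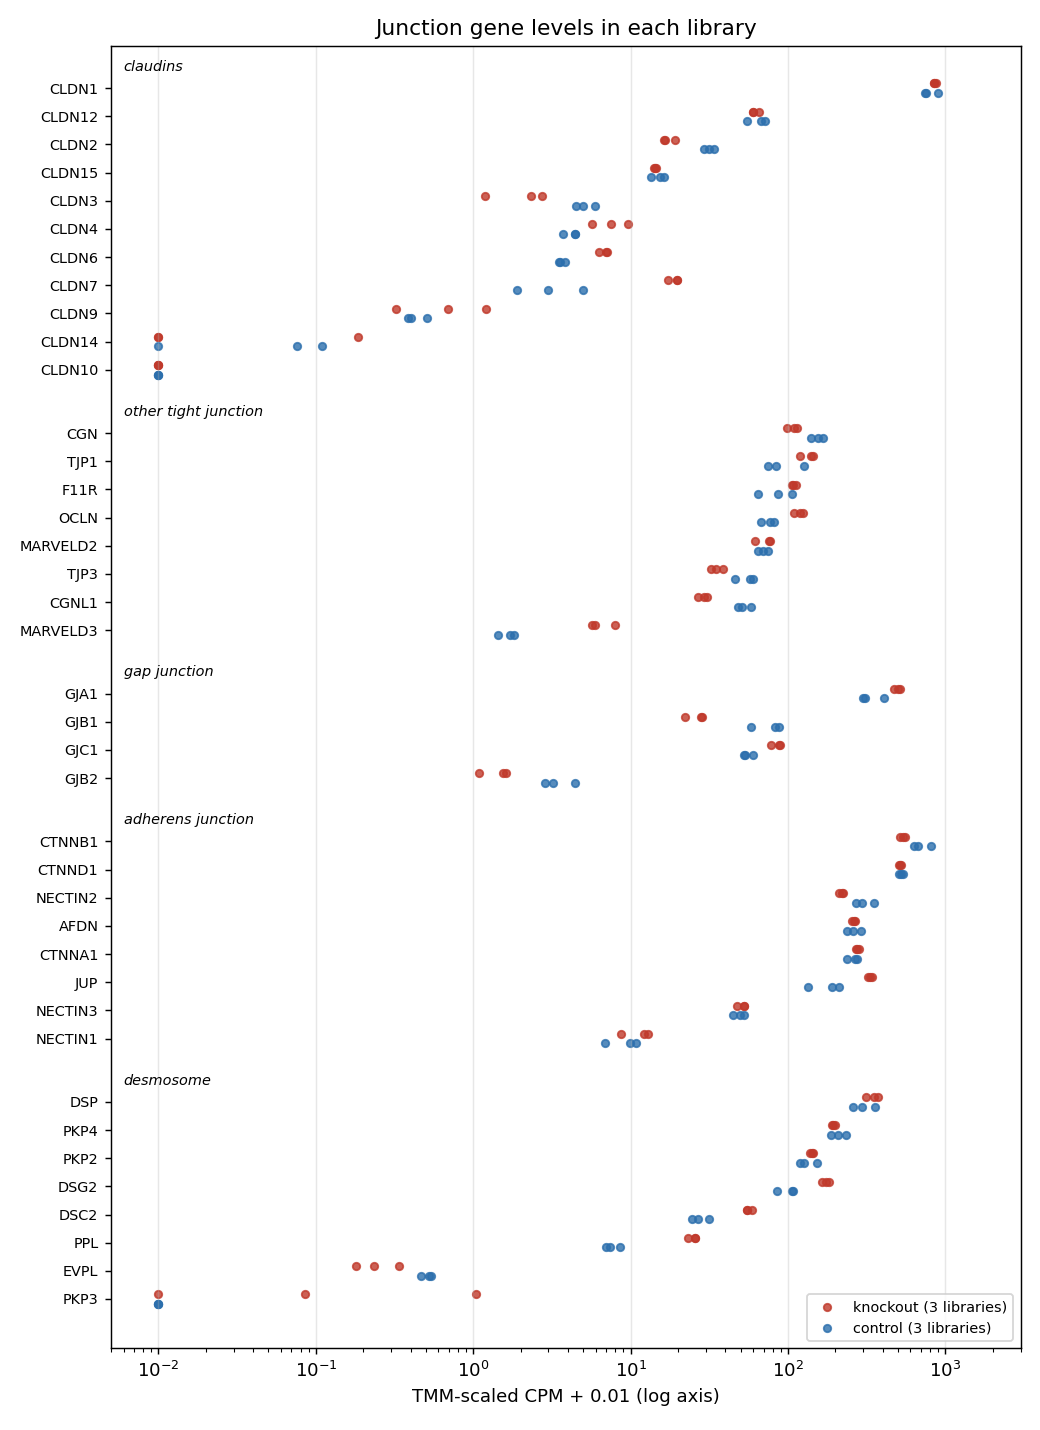
Level of each of the 39 junction genes in CPM (log axis, with an offset of 0.01 CPM) in the 3 knockout libraries (red) and the 3 control libraries (blue), by class. CLDN1, CTNNB1, CTNND1 and GJA1 lie at the top, CLDN7 and PPL stand clear of their control libraries upward and GJB1 downward, and CLDN10 is at 0 in every library.

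The libraries of the groups did not overlap for 22 of the 36 tested genes, 12 with all knockout libraries above and 10 with all below; that is 61.1%, beside 54.3% of all tested genes, of which 29.6% lay above and 24.8% below. The spread between libraries was wider in the controls. The SD relative to the mean CPM was larger in control than in knockout libraries for 28 of the 36 genes. The medians were 6.35% in knockout and 12.1% in control libraries. The wider spread was not limited to junction genes. Over genes of the whole table, chi-square per degree of freedom between pairs of libraries was 57.6 to 89.7 in controls and 9.72 to 30.9 in knockout. Abundance matters for how the counts are read. Among genes with a mean log2 CPM below 3, 26.2% of all tested genes were called higher and 5.09% lower, and of the 7 junction genes in that range 3 were called higher and 2 lower. Among genes at 3 or more, 18.3% of all were called higher and 26.7% lower, and of the 29 junction genes there 9 were called higher and 7 lower. The split of calls also moved with the scaling of the libraries. With upper-quartile scaling 64.4% of all calls were upward, with library size alone 72.1% and with GC and length offsets 38.3%, beside 52.7% with TMM. The junction genes then split into 13 higher and 8 lower, 15 higher and 7 lower, and 11 higher and 11 lower.

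**Figure D2:**
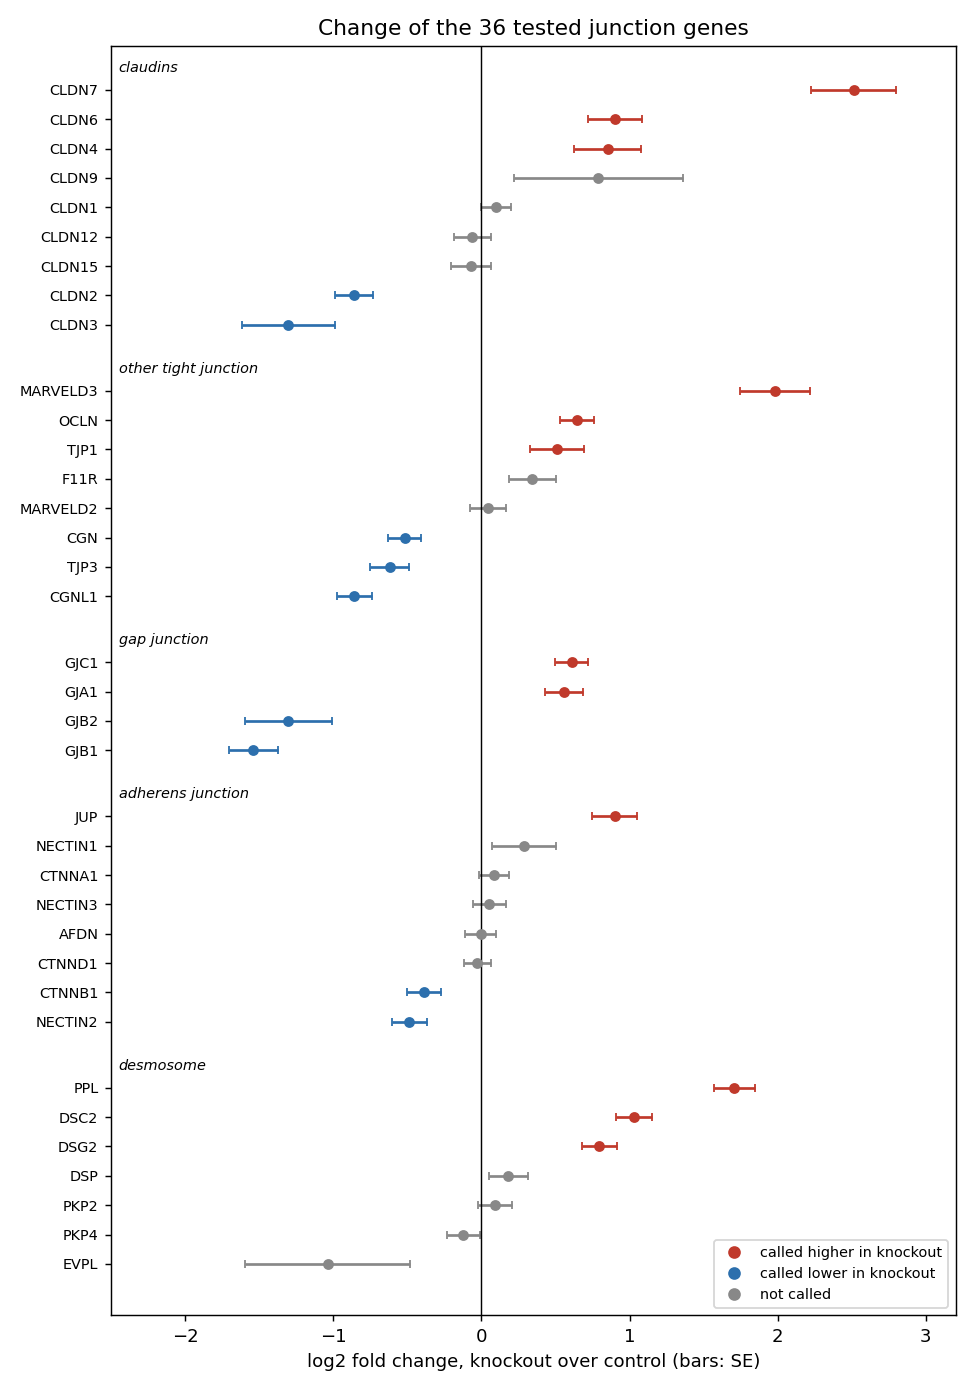
Log2 fold change, knockout over control, of the 36 tested junction genes with its SE, grouped by class and coloured by whether the gene was called higher, lower or not called at an edgeR adjusted p below 0.05. The values run from 2.51 for CLDN7 to -1.54 for GJB1, and the desmosome class has no gene called lower with TMM (EVPL was, under cyclic loess scaling).

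The promoters of 3 genes are shown because they belong to the claudin with the largest rise, CLDN7, and to the connexins with the largest falls, GJB1 and GJB2. Each window runs from 250 bases before to 50 bases after a start site in RefSeq annotation of GRCh38.p14, 5′ to 3′ on the gene's strand. Capitals mark matches, on either strand, to any of these motifs: CACCTG, the E-box of ZEB and SNAI factors; AACCGG, a GRHL motif; GGAATG, a TEAD motif; CAAAGT and GTTAAT, cores of HNF4 and HNF1 sites; GGGCGG, the GC box; and TATAAA, the TATA box.
CLDN7: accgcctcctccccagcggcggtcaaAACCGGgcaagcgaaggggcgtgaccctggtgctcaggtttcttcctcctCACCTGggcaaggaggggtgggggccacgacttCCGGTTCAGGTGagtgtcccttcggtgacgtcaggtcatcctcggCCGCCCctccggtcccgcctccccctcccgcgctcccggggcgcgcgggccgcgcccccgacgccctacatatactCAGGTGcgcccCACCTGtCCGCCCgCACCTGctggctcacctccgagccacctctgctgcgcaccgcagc
GJB1: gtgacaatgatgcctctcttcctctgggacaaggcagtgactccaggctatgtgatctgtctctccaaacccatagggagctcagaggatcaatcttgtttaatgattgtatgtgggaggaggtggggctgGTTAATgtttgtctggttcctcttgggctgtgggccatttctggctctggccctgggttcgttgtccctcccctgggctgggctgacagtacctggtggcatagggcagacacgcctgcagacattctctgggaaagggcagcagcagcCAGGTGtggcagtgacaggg
GJB2: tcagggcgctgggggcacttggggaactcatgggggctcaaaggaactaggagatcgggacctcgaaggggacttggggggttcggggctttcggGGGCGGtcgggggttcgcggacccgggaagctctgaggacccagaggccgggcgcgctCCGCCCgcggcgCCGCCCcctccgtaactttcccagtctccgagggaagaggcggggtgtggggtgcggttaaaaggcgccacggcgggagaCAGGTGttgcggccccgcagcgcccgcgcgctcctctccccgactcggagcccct
The CLDN7 window lies on the minus strand at chr17:7262429-7262728, the GJB1 window on the plus strand at chrX:71214989-71215288 and the GJB2 window on the minus strand at chr13:20192889-20193188. GC content was 71.7% for CLDN7, 56.0% for GJB1 and 71.7% for GJB2, with 30, 2 and 33 CpG dinucleotides. The CLDN7 window shown held 5 E-boxes, 2 GRHL motifs and 2 GC boxes, and a GRHL motif there directly abuts an E-box. CLDN7 has another RefSeq window, at another start site, with 10 CpG dinucleotides and 0 matches to any of the motifs. The GJB1 window held an HNF1 core and an E-box, and the GJB2 window held 3 GC boxes and an E-box.

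RefSeq windows were found for 29 of the 39 genes, 45 windows in all. The E-box letters occurred in 35.6% of the 45 windows, beside 20.6% of all 35116 promoter windows in the table. They were present for 7 of the 9 genes called higher, 4 of the 9 called lower and 2 of the 9 not called that had a window. A gene was counted if any of its windows held the letters. Genes differ in their number of windows, up to 4 for TJP1, so these counts are not a like comparison. A link between the E-box and the calls was not tested. The GRHL letters occurred in 15.6% of the junction windows, beside 7.23% of all, and the GC box in 66.7%, beside 45.0%. HNF1 letters were in 11.1% of the junction windows and 6.88% of all, HNF4 letters in 6.67% and 11.9%, TEAD letters in 6.67% and 14.0%, and TATA letters in 2.22% and 11.5%. These matches describe letters in a window and were set beside all promoters, not beside promoters of like GC content.

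Among the claudins, CLDN7, CLDN6 and CLDN4 rose and CLDN3 and CLDN2 fell in knockout cells, while CLDN1, by far the most abundant claudin of these cells, was not called. Of the 11 claudins 9 were tested, and 4 of those were not called. The median log2 fold change was 0.10. CLDN7 (ENSG00000181885), a claudin of many epithelia found also along the lateral membrane, had 19.7, 17.3 and 19.7 CPM in the knockout libraries and 4.99, 2.98 and 1.90 CPM in the control libraries. Every knockout library lay far above every control library. The means were 18.9 ± 1.37 CPM in knockout and 3.29 ± 1.57 CPM in control cells (SD, n = 3 each), a log2 fold change of 2.51 ± 0.29 (SE), or 5.71-fold (edgeR adjusted p = 0.000137). CLDN7 shares 38 exonic bases with ELP5 on the opposite strand in GENCODE 29. ELP5 had a log2 fold change of -0.28 (edgeR adjusted p = 0.0506), the opposite sign to CLDN7. CLDN7 also shares 269 exonic bases with AC003688.1, a protein-coding gene on the same strand. That gene has a row among the counts but was not tested, and reads may have been shared.

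CLDN3 (ENSG00000165215), which tightens the barrier and is a receptor for an enterotoxin of Clostridium perfringens, was the claudin with the largest fall. Its levels were 1.18, 2.74 and 2.32 CPM in knockout libraries and 4.96, 5.96 and 4.46 CPM in control libraries, with no overlap. The log2 fold change was -1.30 ± 0.31 (SE; edgeR adjusted p = 0.00794). CLDN2, which forms a channel for cations and water in leaky epithelia, had 19.2, 16.2 and 16.6 CPM in knockout libraries and 29.03, 34.0 and 31.5 CPM in control libraries. All knockout libraries were below all controls, and the log2 fold change was -0.86 ± 0.13 (SE; edgeR adjusted p = 0.000563). CLDN2 shares 341 exonic bases with RIPPLY1 on the opposite strand, which was not called (log2 fold change 0.62, adjusted p = 0.469).

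CLDN4, which like CLDN3 binds that enterotoxin, had 5.69, 9.63 and 7.52 CPM in knockout libraries and 4.45, 4.45 and 3.72 CPM in control libraries. The groups did not overlap, but the knockout libraries were spread widely. The log2 fold change was 0.85 ± 0.23 (SE; edgeR adjusted p = 0.0131), and the call was lost without knockout replicate 2 (0.65, adjusted p = 0.0751) and, with all libraries, under cyclic loess scaling (0.52, adjusted p = 0.097). CLDN6, a claudin of fetal tissues that some tumours express, had 7.10, 6.95 and 6.26 CPM in knockout libraries and 3.56, 3.83 and 3.49 CPM in control libraries. The groups were tight and apart, with a log2 fold change of 0.90 ± 0.18 (SE; edgeR adjusted p = 0.00364). CLDN6 shares 40 exonic bases with TNFRSF12A on the opposite strand, which was also called higher (log2 fold change 0.67, adjusted p = 0.0168), and CLDN9 is its close copy, so reads may have been shared.

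CLDN1 (ENSG00000163347), a sealing claudin of liver and skin that hepatitis C virus uses to enter hepatocytes, had 840, 867 and 851 CPM in knockout libraries and 755, 738 and 895 CPM in control libraries. The control libraries lie on both sides of the knockout libraries. Per kilobase of transcript its level was 245 ± 3.93 CPM per kb in knockout and 229 ± 24.7 CPM per kb in control cells (SD, n = 3 each), and the log2 fold change was 0.10 ± 0.10 (SE; edgeR adjusted p = 0.469). It was called higher with library size alone (0.28, adjusted p = 0.042) and with cyclic loess scaling (0.43, adjusted p = 0.0118). CLDN12, an atypical claudin, averaged 61.7 ± 3.04 CPM in knockout and 64.4 ± 8.89 CPM in control cells (adjusted p = 0.719), and CLDN15, a cation channel of the intestine, 14.3 ± 0.21 CPM in knockout and 15.0 ± 1.36 CPM in control cells (adjusted p = 0.696; SD, n = 3 each, edgeR). CLDN9 was at 0.314 to 1.20 CPM in knockout libraries and 0.377 to 0.499 CPM in control libraries (edgeR adjusted p = 0.296). CLDN10 had 0 counts in all 6 libraries, where 3 counts over a group would be the limit that a count of 0 allows. CLDN14 had 7, 0 and 0 counts in knockout libraries and 0, 2 and 3 counts in control libraries, too few to test.

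Summed per kilobase, the claudins reached 300.4 ± 4.30 CPM per kb in knockout and 278 ± 24.1 CPM per kb in control cells (SD, n = 3 each). CLDN1 made up 81.6 ± 0.15% of that sum in knockout and 82.2 ± 1.69% in control cells (exact permutation p = 1, two-sided). The less abundant claudins shifted beneath it. CLDN7 took 4.55 ± 0.39% of the sum in knockout and 0.873 ± 0.45% in control cells, and CLDN2 took 1.95 ± 0.21% in knockout and 3.86 ± 0.49% in control cells (exact permutation p = 0.1 for each, two-sided, the smallest that 3 against 3 libraries allow). The ratio of CLDN7 to CLDN2 per kilobase was 2.19, 2.28 and 2.54 in knockout libraries and 0.367, 0.187 and 0.128 in control libraries. CLDN7 was the more abundant of that pair in every knockout library and the less abundant in every control library.

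**Figure D3:**
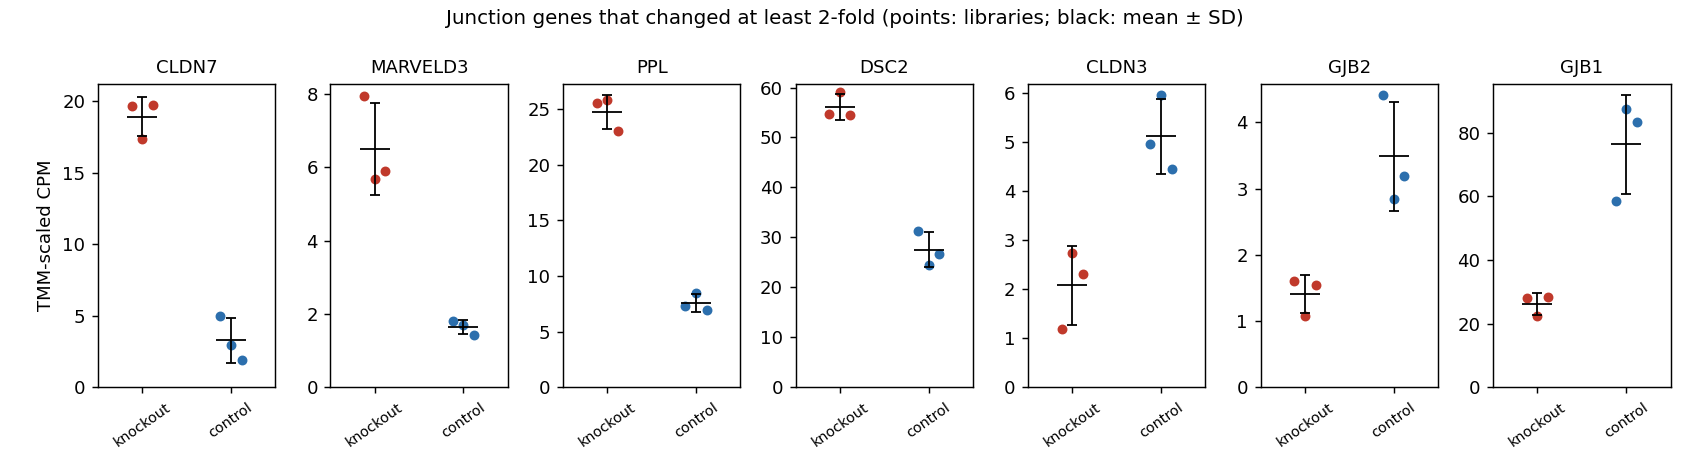
Level in CPM of the 7 junction genes called with a change of at least 2-fold, with knockout libraries to the left of control libraries. Points are libraries and bars the mean ± SD; for CLDN7, MARVELD3, PPL and DSC2 the knockout libraries lie above all controls, and for CLDN3, GJB2 and GJB1 below them.

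Of the 8 other tight junction genes, 3 rose, 3 fell and 2 were not called, with a median log2 fold change of 0.19. Those that rose were MARVELD3, OCLN and TJP1, and those that fell were CGNL1, TJP3 and CGN. MARVELD3 (ENSG00000140832), a MARVEL-domain membrane protein like occludin, had 7.96, 5.67 and 5.90 CPM in knockout libraries and 1.81, 1.70 and 1.43 CPM in control libraries. The groups stood clearly apart, and the log2 fold change was 1.98 ± 0.24 (SE), or 3.94-fold (edgeR adjusted p = 0.000181). OCLN encodes occludin, the best known MARVEL-domain protein of tight junctions, which hepatitis C virus also needs for entry. It had 125, 110 and 118 CPM in knockout libraries and 77.1, 67.3 and 81.2 CPM in control libraries, without overlap (log2 fold change 0.64 ± 0.11 SE, edgeR adjusted p = 0.00163). MARVELD2, or tricellulin, which sits where 3 cells meet, averaged 71.5 ± 8.26 CPM in knockout and 69.4 ± 4.90 CPM in control cells (SD, n = 3 each; edgeR adjusted p = 0.797).

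The cytoplasmic plaque moved in both directions. TJP1 encodes ZO-1, a scaffold that binds claudins, occludin and actin. It had 144, 141 and 120 CPM in knockout libraries and 83.8, 74.8 and 125 CPM in control libraries, so control replicate 3 lay inside the knockout range. Its log2 fold change was 0.51 ± 0.18 (SE; edgeR adjusted p = 0.0448), and the call was lost without any of 5 libraries: leaving out control replicate 1 or 2 gave an adjusted p of 0.151 or 0.164, and leaving out knockout replicate 1, 2 or 3 gave 0.14, 0.13 or 0.0614. With all libraries it was also lost with GC and length offsets (0.25, adjusted p = 0.15) and with DESeq2-style size factors (0.48, adjusted p = 0.0563). TJP3, or ZO-3, a related scaffold of epithelia, had 32.2, 35.1 and 38.4 CPM in knockout libraries and 45.8, 59.5 and 56.9 CPM in control libraries. All knockout libraries lay below (log2 fold change -0.62 ± 0.13 SE, edgeR adjusted p = 0.00429).

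CGN (ENSG00000143375), cingulin, which links ZO proteins to myosin and microtubules, was the most abundant of these 8 genes per kilobase in control cells. It had 113, 99.2 and 109 CPM in knockout libraries and 140, 166 and 155 CPM in control libraries. The groups did not overlap. Its level was 21.0 ± 1.43 CPM per kb in knockout and 30.1 ± 2.52 CPM per kb in control cells (SD, n = 3 each), with a log2 fold change of -0.52 ± 0.11 (SE; edgeR adjusted p = 0.00448). Its paralog CGNL1, paracingulin, which also occurs at adherens junctions, had 27.0, 29.1 and 30.6 CPM in knockout libraries and 48.1, 50.7 and 58.2 CPM in control libraries. It too was lower throughout (log2 fold change -0.86 ± 0.12 SE, edgeR adjusted p = 0.000388). F11R, the junctional adhesion molecule JAM-A, had 112, 107 and 107 CPM in knockout libraries and 105, 86.8 and 64.6 CPM in control libraries. All knockout libraries were above, but it was not called (log2 fold change 0.34 ± 0.16 SE, edgeR adjusted p = 0.11). Without control replicate 1 the value was 0.48 (edgeR adjusted p = 0.0256). F11R shares 1853 exonic bases with AL591806.3, a protein-coding gene on the same strand. AL591806.3 has a row among the counts but was not tested, and reads may have been shared.

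The sum of these 8 genes was 127 ± 5.95 CPM per kb in knockout and 123 ± 4.48 CPM per kb in control cells (SD, n = 3 each). CGN held 16.5 ± 0.40% of it in knockout and 24.5 ± 1.77% in control cells, and OCLN 17.1 ± 0.31% in knockout and 11.3 ± 1.02% in control cells (exact permutation p = 0.1 for each, two-sided). The ratio of OCLN to CGN per kilobase was 1.04, 1.04 and 1.03 in knockout libraries and 0.520, 0.384 and 0.496 in control libraries. Per kilobase, occludin transcript thus stood level with cingulin transcript in knockout libraries and below it in control libraries. In CPM not divided by length, OCLN was above CGN in every knockout library and below it in every control library.

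All 4 gap junction genes were called: GJA1 and GJC1 rose and GJB1 and GJB2 fell, each with no overlap between the groups. Over all tested genes 40.1% were called and 54.3% had groups that did not overlap. The members of the GJB group are the connexins of hepatocyte gap junctions in healthy liver. GJB1 (ENSG00000169562), connexin-32, the main connexin of hepatocytes, had 28.0, 22.3 and 28.5 CPM in knockout libraries and 58.5, 87.3 and 83.2 CPM in control libraries. The lowest control library was above all knockout libraries by a wide margin. The means were 26.2 ± 3.43 CPM in knockout and 76.3 ± 15.6 CPM in control cells (SD, n = 3 each), a log2 fold change of -1.54 ± 0.17 (SE), or 2.91-fold lower (edgeR adjusted p = 0.000101). GJB2 (ENSG00000165474), connexin-26, had 1.61, 1.08 and 1.54 CPM in knockout libraries and 4.42, 2.85 and 3.19 CPM in control libraries. It was low in both groups and lower in each knockout library (log2 fold change -1.30 ± 0.30 SE, edgeR adjusted p = 0.00607). The hepatocyte markers that fell in the same libraries included APOA1, the main protein of HDL, with a log2 fold change of -1.73, AHSG, or fetuin-A, with -1.67, and SERPINA1, or alpha-1 antitrypsin, with -1.64; their part in the fall of GJB1 and GJB2 was not tested.

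GJA1 (ENSG00000152661), connexin-43, the most widely expressed connexin, was the most abundant of the 4. It had 474, 516 and 501 CPM in knockout libraries and 407, 308 and 298 CPM in control libraries, with all knockout libraries above. Its level was 168 ± 7.25 CPM per kb in knockout and 114 ± 20.4 CPM per kb in control cells (SD, n = 3 each), with a log2 fold change of 0.56 ± 0.13 (SE; edgeR adjusted p = 0.00693). GJC1, connexin-45, known from heart conduction tissue and early embryos, had 87.4, 77.4 and 88.9 CPM in knockout libraries and 60.2, 53.3 and 52.8 CPM in control libraries. Again the groups stood apart (log2 fold change 0.61 ± 0.11 SE, edgeR adjusted p = 0.00193).

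The make-up of the connexin transcripts differed between the groups. The sum of the 4 genes was 201 ± 5.34 CPM per kb in knockout and 173 ± 12.4 CPM per kb in control cells. GJA1 made up 82.6, 86.1 and 83.1% of it in knockout libraries and 73.9, 61.9 and 62.0% in control libraries. GJB1 made up 8.78, 6.70 and 8.52% in knockout libraries and 19.2, 31.6 and 31.2% in control libraries. Control replicate 1 lay between the other controls and the knockout libraries for both. The means were 83.9 ± 1.87% in knockout and 65.9 ± 6.90% in control cells for GJA1 and 8.0 ± 1.13% in knockout and 27.3 ± 7.07% in control cells for GJB1 (SD, n = 3 each; exact permutation p = 0.1 for each, two-sided). The size depends on transcript length: the difference in GJA1 share was 18.02 percentage points per kilobase and 10.52 from CPM not divided by length, where GJA1 held 81.6 ± 1.85% in knockout and 71.04 ± 4.95% in control cells. The ratio of GJA1 to GJB1 per kilobase was 9.40, 12.8 and 9.76 in knockout libraries and 3.86, 1.96 and 1.99 in control libraries.

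**Figure D4:**
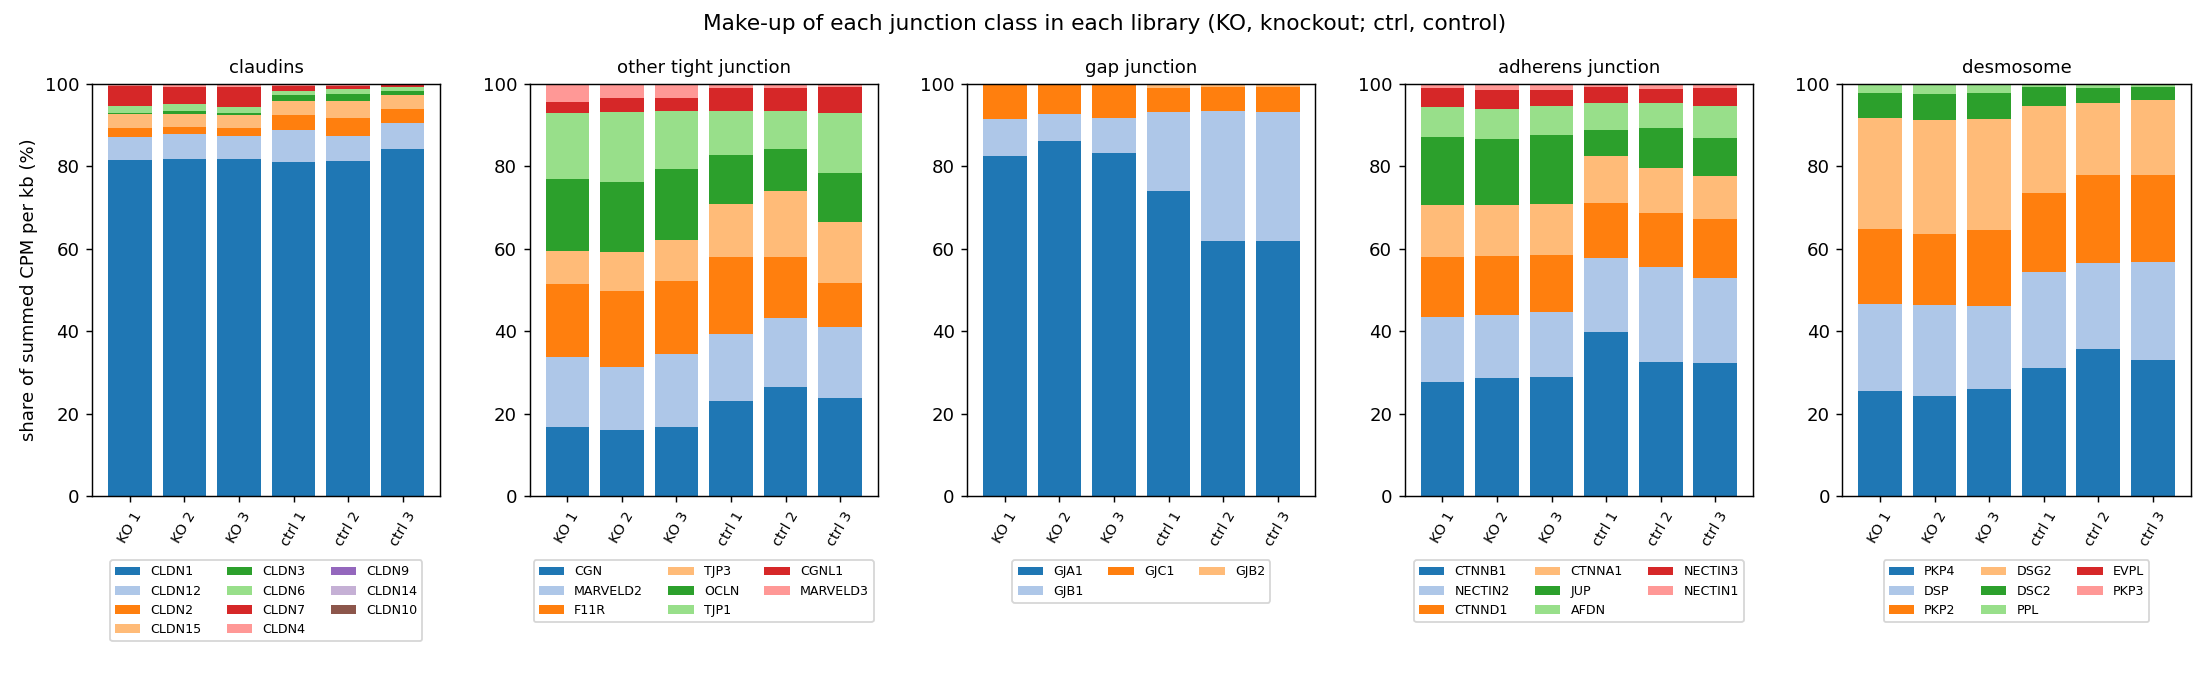
Share of each gene in the summed CPM per kb of its class, in percent, for knockout replicates 1 to 3 and then control replicates 1 to 3. CLDN1 fills about the same share of the claudins in all libraries, and GJA1 fills 82.6 to 86.1% of the gap junction genes in knockout libraries and 61.9 to 73.9% in control libraries.

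Of the 8 adherens junction genes, JUP rose, NECTIN2 and CTNNB1 fell, and 5 were not called; the median log2 fold change was 0.02. JUP (ENSG00000173801) encodes plakoglobin, a close relative of beta-catenin that serves in adherens junctions and desmosomes. It had 332, 320 and 343 CPM in knockout libraries and 135, 210 and 190 CPM in control libraries. The groups were far apart, although control replicate 1 was well below the other controls (log2 fold change 0.90 ± 0.15 SE, edgeR adjusted p = 0.00126). CTNNB1 (ENSG00000168036), beta-catenin, which joins cadherins to alpha-catenin and carries Wnt signals, had 518, 535 and 558 CPM in knockout libraries and 813, 665 and 631 CPM in control libraries. All knockout libraries were below. Per kilobase it was the most abundant gene of the class, at 174 ± 6.53 CPM per kb in knockout and 228 ± 31.5 CPM per kb in control cells (SD, n = 3 each). Its log2 fold change was -0.39 ± 0.11 (SE, edgeR adjusted p = 0.0209). The call was lost without any 1 of the knockout libraries, with adjusted p of 0.0983, 0.0845 and 0.0521 without replicates 1, 2 and 3. It was also lost with library size alone (log2 fold change -0.21, adjusted p = 0.179), with cyclic loess scaling (-0.08, adjusted p = 0.631) and with upper-quartile scaling (adjusted p = 0.0694).

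NECTIN2, an immunoglobulin-like adhesion molecule, had 219, 212 and 225 CPM in knockout libraries and 271, 352 and 296 CPM in control libraries, without overlap (log2 fold change -0.49 ± 0.12 SE, edgeR adjusted p = 0.00787). Its call was lost with library size alone (-0.30, adjusted p = 0.054) and with cyclic loess scaling (-0.24, adjusted p = 0.122). The ratio of JUP to CTNNB1 per kilobase does not depend on how whole libraries are scaled. It was 0.601, 0.561 and 0.576 in knockout libraries and 0.155, 0.295 and 0.281 in control libraries, apart in every library. JUP held 16.5% of the summed level of the class in knockout and 8.29% in control cells, and CTNNB1 28.4% in knockout and 34.9% in control cells, of 612 ± 11.9 CPM per kb in knockout and 653 ± 18.2 CPM per kb in control cells (SD, n = 3 each).

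The remaining adherens genes were not called. CTNNA1, alpha-catenin, which binds actin, averaged 276 ± 6.82 CPM in knockout and 260 ± 19.1 CPM in control cells (edgeR adjusted p = 0.536). CTNND1, p120-catenin, which holds cadherins at the membrane, averaged 512 ± 8.05 CPM in knockout and 522 ± 13.5 CPM in control cells (adjusted p = 0.829); its log2 fold change of -0.03 was -0.21 (adjusted p = 0.0406) with GC and length offsets and 0.26 (adjusted p = 0.0445) with cyclic loess scaling. CTNND1 shares 321 exonic bases with TMX2-CTNND1 and 289 with AP001931.1, protein-coding genes on the same strand, so reads may have been shared. AFDN, afadin, the actin linker of nectins, averaged 261 ± 4.23 CPM in knockout and 262 ± 26.8 CPM in control cells (adjusted p = 0.971). NECTIN1 averaged 11.2 ± 2.28 CPM in knockout and 9.20 ± 2.05 CPM in control cells (adjusted p = 0.311) and NECTIN3 50.7 ± 3.08 CPM in knockout and 48.9 ± 3.83 CPM in control cells (adjusted p = 0.73; SD, n = 3 each, edgeR).

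Of the 8 desmosome genes 7 were tested, and PPL, DSC2 and DSG2 rose while 4 were not called. The median log2 fold change was 0.18. PPL (ENSG00000118898), periplakin, a plakin that links membranes to keratin filaments, had 25.5, 25.8 and 23.0 CPM in knockout libraries and 7.33, 8.51 and 6.92 CPM in control libraries. Both groups were tight and far apart, and the log2 fold change of 1.71 ± 0.14 (SE), or 3.26-fold, had the smallest adjusted p of all junction genes, 1.8e-05 (edgeR). DSC2 (ENSG00000134755), a desmosomal cadherin found in most epithelia, had 54.8, 59.0 and 54.5 CPM in knockout libraries and 31.3, 24.5 and 26.7 CPM in control libraries. There was no overlap (log2 fold change 1.03 ± 0.12 SE, edgeR adjusted p = 0.000171). DSG2, its partner cadherin, had 175, 182 and 163 CPM in knockout libraries and 107, 85.6 and 108 CPM in control libraries. It was higher throughout (log2 fold change 0.79 ± 0.12 SE, edgeR adjusted p = 0.000662).

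PKP4 (ENSG00000144283), a relative of p120-catenin found at several junctions, was the most abundant of the class per kilobase in control cells and was not called. It had 198, 192 and 190 CPM in knockout libraries and 188, 209 and 234 CPM in control libraries, with control replicate 1 below the knockout libraries and the other controls above. Its level was 46.6 ± 0.97 CPM per kb in knockout and 50.7 ± 5.47 CPM per kb in control cells (SD, n = 3 each), and its edgeR log2 fold change was -0.12 ± 0.11 (SE; adjusted p = 0.401). DSP, desmoplakin, the plakin that anchors keratin filaments, averaged 344 ± 29.6 CPM in knockout and 303 ± 48.5 CPM in control cells (adjusted p = 0.294), and PKP2, a plakophilin, 141 ± 3.28 CPM in knockout and 133 ± 17.5 CPM in control cells (adjusted p = 0.564; SD, n = 3 each, edgeR). EVPL, envoplakin, the partner of periplakin in skin, had 13, 6 and 8 counts in knockout libraries and 19, 14 and 16 counts in control libraries. All knockout libraries were below, but at this depth the fall was not called (log2 fold change -1.04 ± 0.56 SE, edgeR adjusted p = 0.161). PKP3, another plakophilin, had 3, 36 and 0 counts in knockout libraries and 0 counts in each control library and was not tested; the 36 counts are from knockout replicate 2, the library in which the fibroblast markers were highest.

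The desmosome genes summed to 185 ± 7.84 CPM per kb in knockout and 152 ± 15.7 CPM per kb in control cells. DSG2 held 27.1% of the sum in knockout and 19.0% in control cells, and PKP4 25.2% in knockout and 33.3% in control cells (exact permutation p = 0.1 for each, two-sided). The ratio of DSG2 to PKP4 per kilobase was 1.06, 1.14 and 1.03 in knockout libraries and 0.681, 0.491 and 0.553 in control libraries. Per kilobase the desmosomal cadherin was above PKP4 in every knockout library and below it in every control library. The order depends on transcript length. In CPM not divided by length, DSG2 was below PKP4 in every library of both groups.

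Keratins, the filaments to which desmosomes attach, rose in 5 of 7 tested genes and fell in none, beside 21.1% called higher and 19% lower over all genes and 26.2% called higher among genes with a mean log2 CPM below 3, where KRT20, KRT19 and KRT15 lie. KRT20 had a log2 fold change of 2.51, KRT19 of 2.35, KRT15 of 1.82 and KRT23 of 0.50; without knockout replicate 2, 3 keratins were called. KRT19 had 78, 169 and 42 counts in knockout libraries and 16, 15 and 19 counts in control libraries, and without knockout replicate 2 its value was 1.60 (edgeR adjusted p = 0.0382). The KRT23 call was lost without that library, when the value was 0.47. KRT18, the partner of KRT8 in simple epithelia, was called at 0.41 and lost its call without any 1 of the knockout libraries, and KRT8 had a value of 0.23 and was not called. The other 10 of the 17 keratins were too low to test.

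Beyond the 39 genes, 90 other junction genes were counted in 5 lists, and 62 were tested: 23 were called higher and 6 lower, with a median log2 fold change of 0.21. That is 37.1% higher and 9.68% lower, beside 21.1% and 19% of all tested genes. Without knockout replicate 1, 2 or 3 the count called higher was 14, 15 and 14. Of 20 remaining adherens junction genes 16 were tested, 8 rose and 3 fell. ARVCF, a relative of p120-catenin, had a log2 fold change of 2.30 ± 0.21 (SE; edgeR adjusted p = 3.81e-05), AJUBA, a LIM protein at cadherin contacts, of 0.83, and PVR, a nectin-like adhesion molecule, of 0.77. CDH1, E-cadherin, the cadherin of epithelial adherens junctions, was not called (-0.04, edgeR adjusted p = 0.803). CDH2, another cadherin of that list, was called higher (0.69, edgeR adjusted p = 0.000888).

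Of 28 tight junction scaffold and polarity genes 27 were tested, 8 rose and 3 fell. That is 29.6% higher and 11.1% lower, beside 21.1% and 19% of all tested genes. LLGL2 and LLGL1, which mark the basolateral side, had log2 fold changes of 0.89 and 0.71, and ARHGEF2, a RhoA activator held at tight junctions, of 0.70. Of 19 remaining connexins and pannexins 7 were tested, and 3 were called higher. GJD3, a connexin, rose by 1.61 on the log2 scale. PANX2 and PANX1, channel proteins related in fold to connexins, rose by 0.59 and 0.45 (edgeR adjusted p = 0.0223 and 0.0379). Without knockout replicate 2, 1 gene of this list was called higher. Of 10 remaining desmosome genes 6 were tested, and DST, a plakin, had a log2 fold change of 1.51 ± 0.20 (SE; edgeR adjusted p = 0.000367) and DSG3, a cadherin of stratified epithelia, of 0.68. Of 13 remaining claudins 6 were tested, and CLDN11, a claudin of myelin and testis, and CLDN23 were called higher. The CLDN11 call was lost without any 1 of 4 libraries and the CLDN23 call without any 1 of 5.

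**Figure D5:**
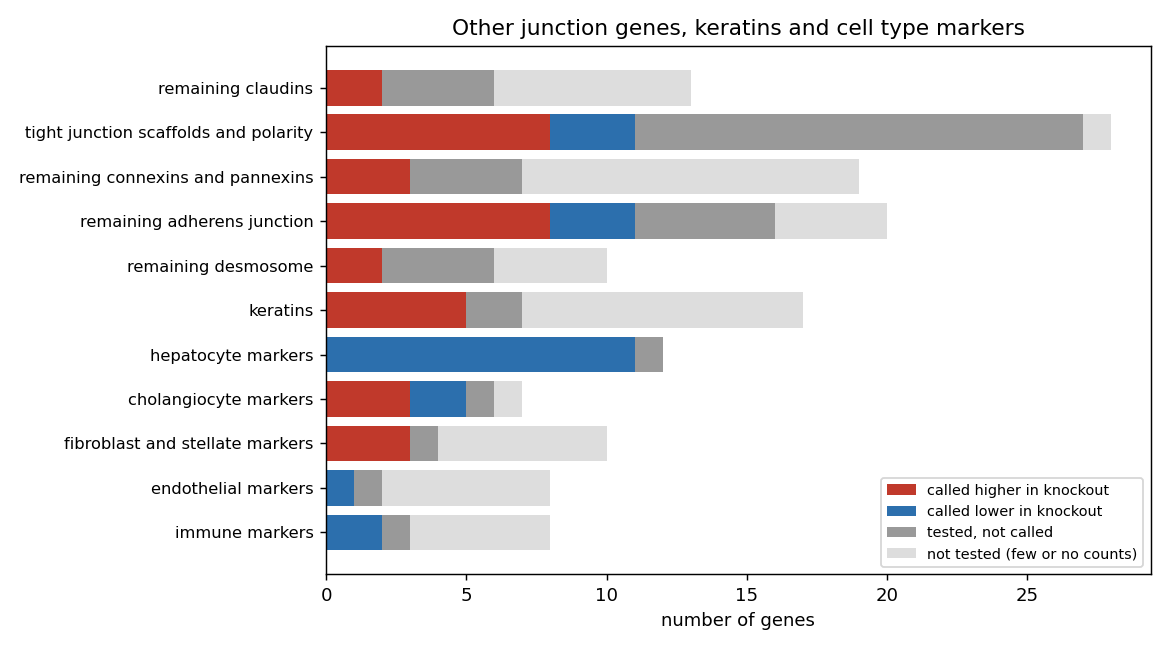
Number of genes called higher, called lower, tested and not called, and not tested, for the 5 lists of other junction genes, the keratins and the 5 lists of cell type markers. Each of the 5 junction lists and the keratins had more genes called higher than lower, and 11 of the 12 hepatocyte markers were called lower.

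Markers of other cell types moved in the same comparison, where 21.1% of all tested genes were called higher and 19% lower. Of 7 cholangiocyte markers, which include KRT19, 6 were tested: SPP1, CFTR and KRT19 rose by 1.97, 1.40 and 2.35 on the log2 scale, with the dependence on knockout replicate 2 given above for KRT19, and SOX9 was among 2 that fell, by 1.14; the summed level ran from 340 to 358 CPM in knockout and from 395 to 571 CPM in control libraries. Of 10 fibroblast and stellate markers 4 were tested and 3 were called higher, COL3A1, LUM and PDGFRB; LRAT was at 0 in every library. COL3A1 had 30, 262 and 14 counts in knockout libraries and 0, 19 and 0 counts in control libraries, which overlap, and its call was lost without knockout replicate 2 and without control replicate 1 or 3. Endothelial markers summed to between 31.5 and 35.7 CPM in knockout and between 54.7 and 70.7 CPM in control libraries, with TEK and CLEC4G at 0 in every library; PECAM1 was the 1 called, lower. Immune markers summed to between 218 and 238 CPM in knockout and between 509 and 578 CPM in control libraries, with MS4A1 at 0 in every library, and LYZ and CD68 were called lower. The part of these markers in the junction results was not tested.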

How the data were processed

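RNA-seq was made from 3 knockout and 3 control libraries of Huh7 cells, with a SMARTER mRNA kit from column-purified total RNA, per the labels' protocols. The authors deposited unnormalized read counts per gene. Build hg19 appears in the submitters' processing notes with no role; aligner, counter, annotation and strand setting are not given in those sources, so overlapping, antisense and near-identical genes can share reads. Of 25202 rows, 19974 have an Ensembl ID and 19883 of those matched a symbol; 5228 are loci added by the authors' pipeline, kept in library sizes and tests. Columns carry the names given in the samples' descriptions.

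The count analysis used edgeR 4.0.16 in R 4.3.3: filterByExpr with default settings kept 16331 rows, libraries were scaled by TMM, and a quasi-likelihood test compared the groups with no covariate. P-values were adjusted by Benjamini-Hochberg over all 16331 rows and called below 0.05. The biological coefficient of variation was 17.6%. CPM here uses TMM-scaled library sizes and is not the authors' value. CPM per kb divides them by the median length of a gene's GENCODE 29 basic transcripts, which allows levels of different genes to be compared. Shares within a class were compared by exact permutation over libraries. Errors of log2 fold changes are SEs, the fitted value over the root of its F statistic.

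The junction genes and all lists were chosen with earlier results of these data known. By rule, every junction gene is named. Full statistics go to those called with a change of at least 2-fold and to the most abundant per kilobase in each class. Up to 4 called genes with the smallest p are named of each other list. KRT8, KRT18, CDH1, CDH2 and genes shared between lists were named beside them after their values were seen. Some genes that the rule names are not reported here. Promoters come from RefSeq (GRCh38.p14); coordinates in hg19 are not used here.

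The pipeline was tested on simulated counts of 16331 genes for this comparison, with 50 genes changed at each size. It recovered 28% of the 1.5-fold changes, 62% of the 2-fold, 88% of the 4-fold and 92% of the 8-fold ones. Of 145 calls 10 were false. In the data 40.1% of genes were called, far more than were changed in the simulation, so these rates need not hold for the data. Alternatives were other scalings, filters, DESeq2 1.42.0, limma-voom (limma 3.58.1), a replicate block, offsets for GC content and length, a threshold of 0.01 and leaving out each library.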

Additional observations from a re-analysis of the deposited data

How the results depend on the processing

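Of the 21 called junction genes, 17 kept their call and direction in all 17 alternatives other than the stricter threshold; CLDN4, TJP1, CTNNB1 and NECTIN2 lost it in at least 1. The counts of all junction genes were 10 to 16 higher and 7 to 11 lower over the alternatives, and HNRNPA2B1 kept its call with log2 fold changes of -2.58 to -2.10. The scalings moved the median log2 fold change of all tested genes, 0.05 with TMM, to 0.16 with upper-quartile scaling, 0.24 with library size alone and -0.08 with GC and length offsets, and the class medians moved with it. With upper-quartile scaling the median was 0.19 over all junction genes, 0.21 for claudins and 0.13 for adherens genes, of which 1 was called lower. With library size alone 1878 of all genes and 0 adherens genes were called lower, and medians were 0.27 over all junction genes, 0.28 for claudins, 0.38 for other tight junction genes, 0.21 for adherens genes and 0.37 for desmosome genes. With cyclic loess 3 adherens genes were called higher and 0 lower, 1 desmosome gene, EVPL, was called lower, CTNND1 reversed to 0.26, and medians were 0.25 over all junction genes, 0.34 for other tight junction genes, 0.19 for adherens genes and 0.45 for desmosome genes. With GC and length offsets 5013 of all genes and 13 of the other junction genes were called lower, and medians were -0.059 over all junction genes, -0.072 for claudins, -0.11 for adherens genes and -0.0042 for desmosome genes. A filter of 1 CPM in 3 libraries gave medians of 0.023 for claudins and 0.49 for desmosome genes, and no filter 0.48 for desmosome genes, as fewer or more genes were tested. At an adjusted p below 0.01, 2054 of all genes were called higher and 1930 lower, with 13 of the other junction genes higher and 1 adherens gene lower. Of the 15 junction genes not called with TMM, F11R, CLDN1 and DSP were called higher in 4, 2 and 2 alternatives, CTNNA1 higher in 1, and CLDN12 and EVPL lower in 1 each. The cause of the other changes was not tested.

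The labels do not say whether replicate numbers pair the samples. Same-numbered libraries had correlations of 0.042, -0.071 and -0.073 of their deviations from the group means. With 3 libraries a group these values cannot decide the question. With a replicate block 3126 of all genes were called higher and 2613 lower, 12 junction genes higher and 8 lower, and 1 adherens gene lower, since CTNNB1 was not called (adjusted p = 0.0547). Leaving out each library in turn gave 2369 to 3459 of all genes called higher and 2047 to 3439 lower, 14 to 21 of the other junction genes higher and 5 to 8 lower, and 1 to 2 adherens genes lower. Medians then ran from 0.029 to 0.12 over all junction genes, 0.027 to 0.17 for claudins and -0.037 to 0.033 for adherens genes. The GJA1 share of the gap junction genes was 18.02 percentage points higher in knockout than in control cells, 10.52 without division by transcript length and 16 to 22.01 without 1 library. Shares with the longest transcript as length, an alternative chosen after seeing the data, kept direction except for CLDN1, whose difference was within the spread between libraries throughout. With 3 libraries a group, changes under 2-fold can be missed, and low counts widen the error. Examples are EVPL with 6 to 19 and CLDN9 with 11 to 43 counts per library.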
